A study of Spinacia oleracea with 24 samples.

Results

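Spinach leaves were profiled by RNA sequencing at low nitrogen (LN, 50 ppm) and high nitrogen (HN, 200 ppm) at 4 times of day, and the genes described here encode enzymes and proteins that build, loosen or cut the plant cell wall. They were chosen by the protein name that the deposited table gives each gene: xyloglucan endotransglucosylase/hydrolase (XTH), expansin, pectinesterase, polygalacturonase, pectate lyase or cellulose synthase. A gene also had to reach at least 1 FPKM (fragments per kilobase of gene, scaled for library size, so a level corrected for gene length) in at least 3 of 24 libraries. Of 25494 genes in the table, 262 carried such a name and 120 passed the level rule. The other 142 were not tested, and 83 of them were at 0 in every library.

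All plants were cultivar Space, 48 days old, grown in a soil-free turface medium with 8 h of light a day. Leaves were taken as the dark period ended, midway through the light, as the light ended and midway through the dark. All 8 groups, LN and HN at every time, had 3 libraries, from separate plants of a single day, so p-values measure the spread between plants of that day. Whether a plant was sampled again at a later time, and whether replicate numbers follow plants, was not stated. A whole leaf was measured, and in such bulk samples fewer cells of a type and less RNA per cell cannot be told apart.

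The growing plant wall is a mesh of cellulose fibrils tied by xyloglucan and embedded in pectin. Cellulose synthase complexes in the plasma membrane spin the fibrils, XTHs cut and rejoin xyloglucan chains, and expansins let the mesh slide without cutting it. Pectinesterases strip methyl groups from pectin, after which calcium can stiffen it or polygalacturonases and pectate lyases can cut it. Separate inhibitor proteins hold pectinesterases in check, and others bind polygalacturonases of attacking fungi. In many plants leaf growth and wall synthesis follow the daily cycle of light, carbon supply and turgor.

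Differences are given as log2 of FPKM + 1, tested with limma across 18110 genes, and a gene is called where the Benjamini-Hochberg adjusted p is under 0.05. This scale understates the change of genes at low levels. Each call was recomputed under up to 32 alternatives, such as leaving out a library. The number of alternatives that ended it is given where it matters. When only a pair of groups is compared, most left-out libraries lie outside it and alter only the estimate of spread.

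Library depth lay between 18369094 and 25252705 recovered fragments. The 3 libraries farthest from their group were all LN: replicate 3 at the end of light, replicate 2 at the end of dark and replicate 3 in the middle of the dark. Their mean absolute log2 distance from their group was 0.527, 0.516 and 0.476, and results that rest on them are given with and without them. Photosynthetic markers, which identify leaf cells, were all tested (24 of 24 genes) and their summed level ranged from 15498 to 113185 FPKM in LN and from 44127 to 111516 FPKM in HN. Markers of dividing cells summed to between 188 and 1077 FPKM in LN and between 220 and 520 FPKM in HN. The highest of these, 1077 FPKM, belonged to LN replicate 3 at the end of light, beside 251 and 353 FPKM in the other two libraries of that group. Xylem and secondary wall markers summed to between 16.4 and 58.7 FPKM in LN and between 22.1 and 60.9 FPKM in HN, and that list holds CesA4, CesA7 and CesA8. None of the 4 root markers passed the level rule, 1 was at 0 in every library and the highest mean of the others was 0.0648 FPKM.

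The 120 genes fell into 10 families by name. There were 21 XTHs, 18 expansins, 17 pectinesterases, 3 pectinesterase inhibitors, 18 polygalacturonases, 14 polygalacturonase inhibitors or beta-like proteins, 11 pectate lyases, 7 cellulose synthase catalytic subunits (CesA), 9 cellulose synthase-like proteins (Csl) and 2 cellulose synthase interactive proteins (CSI). Only parts of the large families were detected, with 17 of 60 named pectinesterases, 18 of 51 expansins, 18 of 45 polygalacturonases and 21 of 38 XTHs passing the rule. By contrast, 7 of 8 CesA genes, 9 of 11 Csl genes and both CSI genes passed. The family's Pfam domain was annotated in 101 of 106 genes for which a domain was looked up, and was missing from Spo14886, Spo07347, Spo15798, Spo16317 and Spo01020. Swiss-Prot names were those of Arabidopsis proteins for 97 of the genes, so the numbers in names such as CesA3 follow Arabidopsis. The genes just inside the level rule had a third-highest value of 1.014 FPKM (Spo25416), 1.03 FPKM (Spo03934) and 1.09 FPKM (Spo20110), and those just outside had 0.844 FPKM (Spo02176), 0.774 FPKM (Spo28257) and 0.731 FPKM (Spo16366).

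Levels spanned a wide range, and the 120 genes together held between 0.188% and 0.41% of the summed FPKM of a library. Mean FPKM over 24 libraries was at least 5 in 75 genes and under 5 in 45. The highest means were 151 FPKM for CesA3 (Spo05573), 128 FPKM for XTH6 (Spo09254), 113 FPKM for CslG3 (Spo11611) and CslG2 (Spo12718), and 109 FPKM for XTH27 (Spo24001). Expansin-A8 (Spo16876) led the expansins with 103 FPKM, pectinesterase inhibitor 9 (Spo11370) the inhibitors with 93.6 FPKM, and pectinesterase 3 (Spo07760) the pectinesterases with 67.4 FPKM. Genes that cut pectin were lower, the highest polygalacturonase (Spo14737) averaging 22.8 FPKM and the highest pectate lyase, P56 (Spo04494), 29.4 FPKM.

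Some of the genes are close neighbours in the Sp75 assembly, and 33 of them form 11 groups with gaps of at most 50 kb. The largest holds 8 polygalacturonase inhibitor genes on chromosome 3 between 33706536 and 33980423. A group of 5 Csl genes lies on the same chromosome between 358191 and 414262. The XTH2-named genes Spo12226 and Spo12227 are adjacent on scaffold SpoScf_01968 between 64068 and 66861, and the expansin-like B1 genes Spo09778 and Spo09736 on chromosome 6 between 42172396 and 42182435. The sources used here do not give how reads shared by near-identical neighbours were assigned, so values within such pairs are uncertain and do not count as independent.

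Time of day changed 39 of the 120 genes in LN (32.5%, against 28.7% of all tested genes) and 47 in HN (39.2%, against 38.9%). The shares were near the background in both nitrogen levels. Both lists held 28 genes, and in 18 of these the highest time was the same in LN and HN. A further 11 were called in LN alone, 19 in HN alone and 62 in neither. A test of the difference between nitrogen levels in this daily change called none of the 120 genes with all libraries, and up to 3 with libraries left out, as described further on, so a call in a single nitrogen level does not show a difference between levels.

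The called genes peaked most often at the end of light in LN and at either light time in HN. Peaks were not counted over all called genes of the series, so these counts do not set wall genes apart. The LN means at the end of light include replicate 3, the library farthest from its group. In LN, the highest mean fell at the end of dark in 8 genes, in the middle of light in 2, at the end of light in 21 and in the middle of dark in 8. In HN those counts were 9, 14, 18 and 6. In LN, 4 of 5 called CesA genes peaked at the end of light, whereas in HN 3 of 4 peaked in the middle of light. Among called XTHs, 3 of 5 peaked at the end of dark in LN and 5 of 9 in the middle of light in HN. Among polygalacturonase inhibitors or beta-like proteins, 4 of 6 called genes peaked at the end of light in LN and 6 of 8 in HN. No called expansin had its peak at the end of dark or in the middle of light in either nitrogen level.

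The end of light was compared with the end of dark, 2 times that bracket the light period. In LN 26 genes were higher and 7 lower at the end of light, and in HN 27 were higher and 12 lower. Among all tested genes 12.2% were higher and 13.8% lower in LN (26% in either direction), and 15.7% and 17.1% in HN (32.7%). The median difference over the 120 genes was 0.37 in LN and 0.32 in HN, beside -0.003 and 0.011 over all tested genes. In LN the end-of-light and end-of-dark libraries did not overlap in 27 of 33 called genes, and in HN in all 39. A small adjusted p with 3 libraries per group favours such separation. It was not counted over all called genes of the series, so it is not a trait of wall genes. The LN and HN lists shared 26 genes, which were 78.8% of the LN list and 66.7% of the HN list, with 19 higher and 7 lower at the end of light in both.

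The LN result depended on libraries that stood apart. Without LN replicate 3 at the end of light the LN median was 0.04, without LN replicate 2 at the end of dark it was 0.19, and without all 3 of the farthest libraries it was -0.01. Of the 33 LN calls, 21 remained without the 3 libraries and 27 genes were called there. In HN 39 of 39 calls remained, but the 3 libraries are all LN, so leaving them out cannot change an HN difference. It alters only the shared estimate of spread, which holds for every HN count given without them. The summed level of dividing-cell markers in LN at the end of light was highest in the same replicate 3, and its part in these values was not tested.

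**Figure D1:**
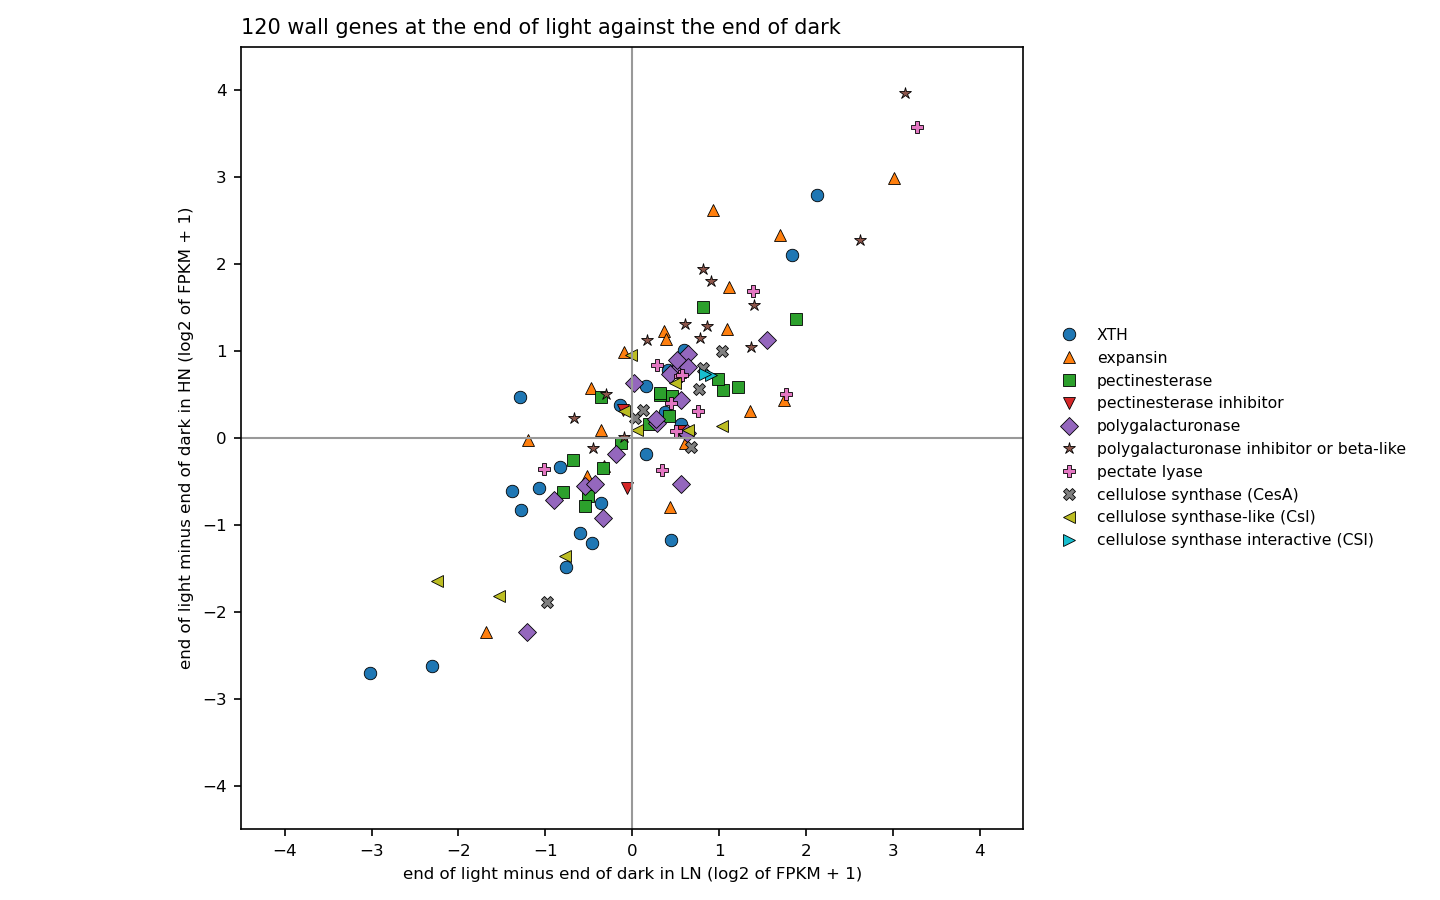
Difference between the end of light and the end of dark for 120 wall genes, in LN (horizontal axis) and HN (vertical axis), as log2 of FPKM + 1, with a marker for each family. Of the points, 68 lie in the upper right, where polygalacturonase inhibitor 1 Spo12997 (3.14 in LN, 3.97 in HN) and pectate lyase 12 Spo06997 (3.27 in LN, 3.58 in HN) stand farthest out, and 33 lie in the lower left, with XTH23-named Spo23868 (-3.02 in LN, -2.71 in HN).

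The middle of light was compared with the middle of dark in the same way. In LN 8 genes were higher and 4 lower in the middle of light (4.32% of all tested genes were called higher and 3.34% lower, 7.66% in all), and in HN 19 were higher and 10 lower (12.5% and 11.1%, 23.7% in all). Libraries did not overlap in 11 of the 12 LN calls and in all 29 HN calls, again without a count over all called genes. The shares of all tested genes above also apply to the family counts for these times given further on. The lists shared 8 genes, 66.7% of the LN list and 27.6% of the HN list, 6 higher and 2 lower. The HN split depended on the scaling: with every library brought to a common sum of FPKM, the median of all genes shifted by -0.22 in LN and -0.34 in HN, and the calls became 6 higher and 5 lower in LN and 13 higher and 25 lower in HN. Leaving out LN replicate 1 or 2 in the middle of light left 7 or 6 LN calls, leaving out HN replicate 1 or 2 at that time left 18 HN calls, and without the 3 farthest libraries LN had 20. Photosynthetic markers moved in this comparison too, with 12 of 24 higher and none lower in LN (median 1.502) and 8 higher and none lower in HN (median 0.73), and their part in the wall gene differences was not tested. Directions below hold relative to that shift, and no named call changed sign under it.

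CesA1 (Spo12368) and CesA6 were higher at the end of light than at the end of dark at both nitrogen levels, and CesA4 was lower. A second CesA1-named gene, Spo10132, was called higher in LN and not called in HN. In Arabidopsis, CesA1, CesA3 and CesA6 form the complex of growing cells and CesA4, CesA7 and CesA8 that of secondary walls. Of 7 CesA genes, 4 were higher and 1 lower at the end of light than at the end of dark in LN, and 2 were higher and 1 lower in HN. The called shares were 71.4% and 42.9%, beside 26% of all tested genes in LN and 32.7% in HN. With a common sum of FPKM these counts were 4 and 1 in LN and 3 and 1 in HN, and without the 3 farthest libraries 3 and 0 in LN and 2 and 1 in HN.

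CesA1 (Spo12368, chromosome 6, 36849302 to 36857764) had 91.2, 92.7 and 67.7 FPKM in LN leaves at the end of light, against 45, 33.8 and 42.3 FPKM at the end of dark. HN leaves had 86.7, 69.3 and 70 FPKM at the end of light, against 39.9, 31.7 and 40.2 FPKM at the end of dark. The groups did not overlap at either nitrogen level, and the difference was 1.03 ± 0.16 in LN (SE, adjusted p = 8.73e-05) and 0.997 ± 0.16 in HN (adjusted p = 9.75e-05). No alternative ended either call.

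CesA6 (Spo07185, chromosome 4, 91952931 to 91958557) showed the light-dark contrast at both pairs of times. It had 139, 156 and 116 FPKM in LN leaves in the middle of light, against 56.7, 68 and 68.8 FPKM in the middle of dark. In HN leaves the values were 167, 199 and 95.9 FPKM in the middle of light, against 43.5, 51.6 and 48.9 FPKM in the middle of dark. These groups lay apart by 1.07 in LN (adjusted p = 0.00486) and 1.60 in HN (adjusted p = 5.68e-05). At the end of light its values were 173, 159 and 115 FPKM in LN leaves, against 96.6, 71.5 and 82.6 FPKM at the end of dark, a difference of 0.81 (adjusted p = 0.00853). In HN that difference was 0.80 (adjusted p = 0.00735).

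CesA3, the most abundant subunit, had 173, 178 and 179 FPKM in LN leaves at the end of light, against 119.7, 143 and 78.2 FPKM at the end of dark. Its HN values were 169, 179 and 139 FPKM at the end of light, against 206, 145 and 176 FPKM at the end of dark. The LN groups did not overlap (0.67 ± 0.19, adjusted p = 0.0119) and the HN groups did. The LN call was lost without LN replicate 3 at the end of dark, and in a fit of the compared groups only (highest adjusted p = 0.153). A CesA1-named copy, Spo10132, was higher in the middle of light than in the middle of dark in HN (1.07, adjusted p = 0.0028), with 149, 103 and 89.9 FPKM against 58.6, 47.2 and 51.5 FPKM. Its LN difference at the end of light against the end of dark was 0.77 (adjusted p = 0.0194), between groups that overlapped. It became 0.67 (adjusted p = 0.0953) without the 3 farthest libraries, and in HN that comparison was not called.

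CesA4 (Spo23502), named for a secondary-wall subunit, ran the other way. It had 7.49, 10.5 and 10.2 FPKM in LN leaves at the end of light, against 18.7, 31.8 and 11.8 FPKM at the end of dark. HN leaves had 8.33, 11.3 and 10.2 FPKM at the end of light, against 41.8, 34.3 and 42 FPKM at the end of dark. Both nitrogen levels were lower at the end of light with no overlap, by -0.98 in LN (adjusted p = 0.0164) and -1.89 ± 0.29 in HN (adjusted p = 6.38e-05). The LN difference became -0.69 (adjusted p = 0.0882) without the 3 farthest libraries. CesA8 (Spo04584) averaged 2.18 FPKM and CesA7 (Spo25058) 1.97 FPKM over 24 libraries, and neither was called in any comparison. CesA4 averaged 17.5 FPKM, well above both.

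CSI1 (Spo09300), which in Arabidopsis ties cellulose synthase complexes to microtubules, was higher at the end of light than at the end of dark. Its LN values were 46.1, 31.5 and 25.2 FPKM at the end of light, against 19.2, 20.3 and 13.3 FPKM at the end of dark (0.90, adjusted p = 0.00436). The HN libraries had 35, 29.2 and 28.2 FPKM at the end of light, against 20.2, 16.5 and 18.2 FPKM at the end of dark (0.72, adjusted p = 0.0145). The end-of-light libraries lay above the end-of-dark libraries at both nitrogen levels. The HN call was lost without HN replicate 2 at the end of dark or replicate 1 at the end of light (highest adjusted p = 0.0668). CSI3 (Spo23724) was called in the same direction at 0.84 in LN (adjusted p = 0.027) and 0.74 in HN (adjusted p = 0.0411), but 7 and 8 of 32 alternatives ended those calls, and without the 3 farthest libraries the LN value was 0.62 (adjusted p = 0.223).

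Cellulose synthase-like proteins make other wall polymers, and Csl enzymes of the G group in spinach and other plants also attach a sugar acid to saponins. Their direction was mixed: 1 of 9 genes was higher and 2 lower at the end of light in LN, and 3 were lower in HN. This made 33.3% called at each level, beside 26% of all tested genes in LN and 32.7% in HN. With a common sum of FPKM, 1 was also higher in HN. In the middle of light 3 were lower in LN, and in HN 1 was higher and 2 lower (none higher and 3 lower with a common sum).

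CslG2 (Spo12718, chromosome 3, 370358 to 374098) was high in the dark at both pairs of times. It had 53.7, 48.2 and 49.9 FPKM in LN leaves at the end of light, against 118, 192 and 145 FPKM at the end of dark. HN leaves had 62.8, 56.3 and 65 FPKM at the end of light, against 198, 224 and 234 FPKM at the end of dark. All end-of-light libraries lay below all end-of-dark libraries, by -1.53 ± 0.17 in LN (adjusted p = 3.4e-06) and -1.81 in HN (adjusted p = 3.66e-07), and no alternative ended either call. It was also lower in the middle of light than in the middle of dark, by -0.996 in LN (adjusted p = 0.00166) and -0.68 in HN (adjusted p = 0.00841). The last of these was lost without HN replicate 1 in the middle of dark (adjusted p = 0.056).

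Its neighbour CslD4 (Spo12722) had 18.6, 17.4 and 34.7 FPKM in HN leaves at the end of light, against 72.9, 51.8 and 54.4 FPKM at the end of dark (-1.36, adjusted p = 0.00165). CslE1 (Spo12716), a further gene of that group, had a different course. The LN libraries had 67.7, 77.9 and 49.3 FPKM at the end of light, against 29, 28.5 and 35 FPKM at the end of dark (1.03, adjusted p = 0.00101). Its middle-of-light values were 34.7, 34.2 and 44 FPKM in LN, against 67.3, 62.6 and 105 FPKM in the middle of dark (-1.01, adjusted p = 0.0053). CslE1 was thus high from the end of light into the dark in LN and low at the end of dark. CslD2 (Spo23361) was higher at the end of dark: it had 4.6, 2.39 and 1.64 FPKM in LN leaves at the end of light, against 6.72, 30 and 21.3 FPKM at the end of dark (-2.25, adjusted p = 0.000376). In HN it was lower at the end of light by -1.65 (adjusted p = 0.00362). CslG3 (Spo11611), at 113 FPKM on average, was not called in any comparison.

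**Figure D2:**
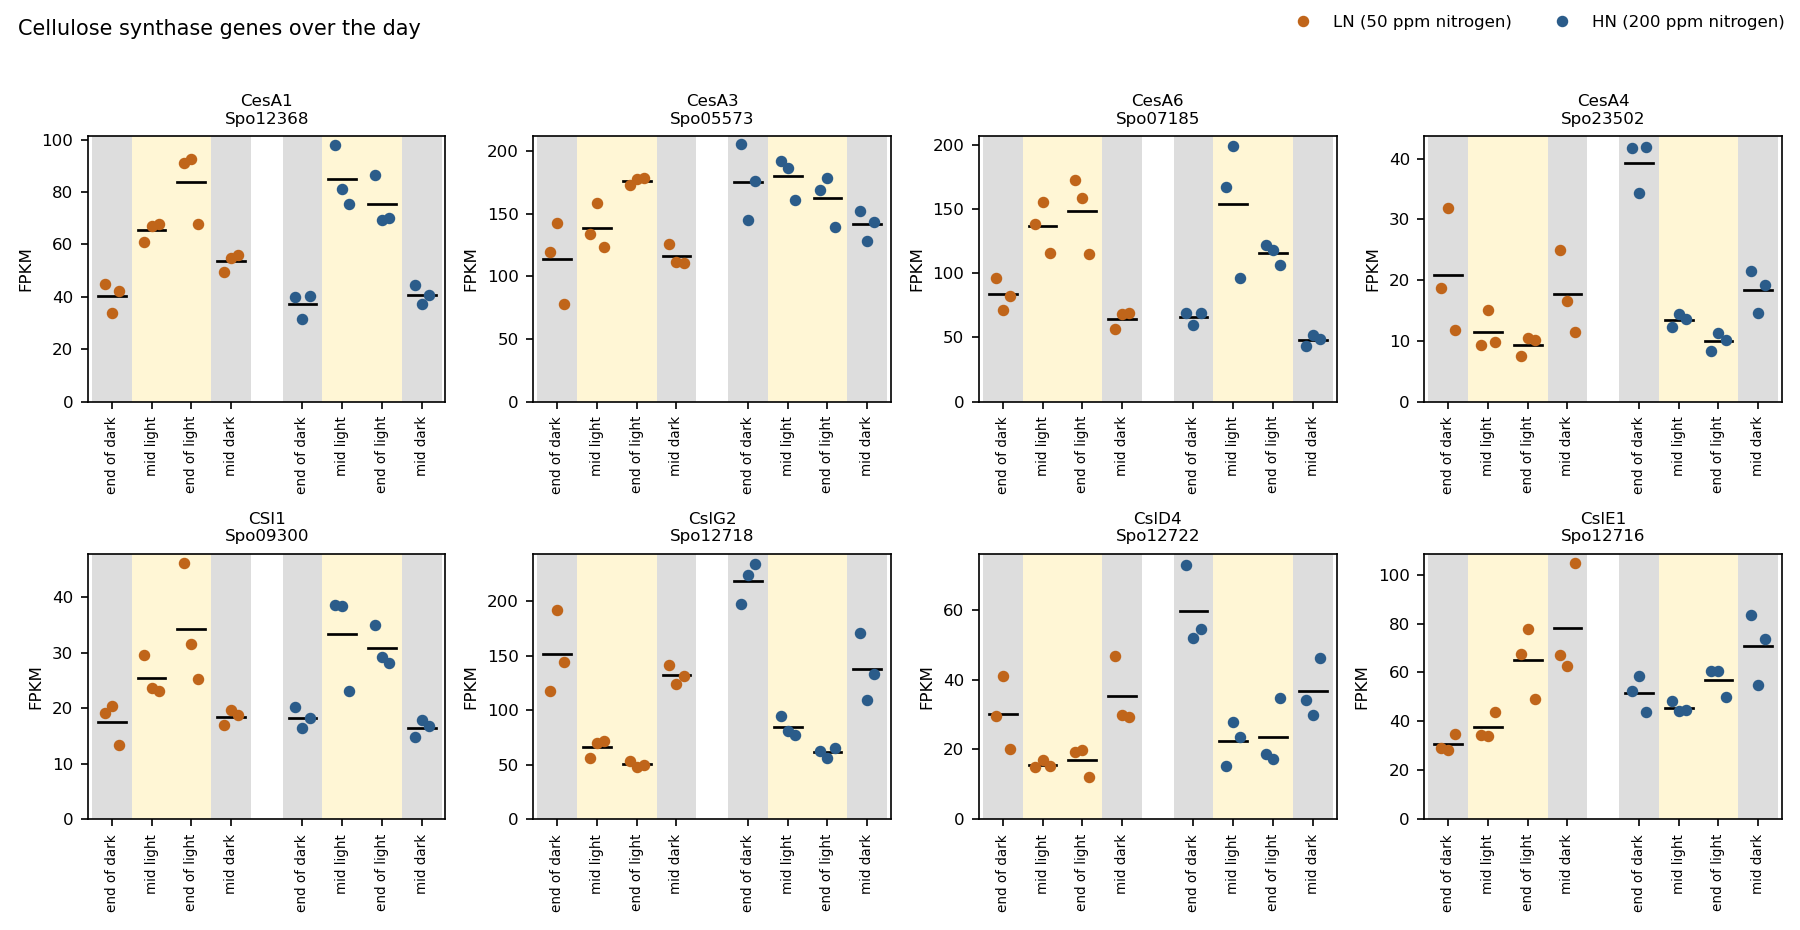
FPKM of 8 cellulose synthase, Csl and CSI genes in every library (points) with the group mean (black bar), for LN and HN at the 4 times. Grey marks dark and yellow marks light. CesA1, CesA6 and CSI1 stand higher at the end of light than at the end of dark at both nitrogen levels, and CesA4 and CslG2 lower. CslD4 was called lower at the end of light in HN only. Between the middle times CesA6 and CslG2 were called at both levels, CesA1 and CSI1 in HN only, CslD4 in LN only and CesA4 at neither.

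Among the XTHs, which remodel xyloglucan, single genes moved strongly in opposite directions. At the end of light 2 of 21 were higher and 3 lower than at the end of dark in LN, and 2 were higher and 4 lower in HN. The called shares were 23.8% and 28.6%, beside 26% of all tested genes in LN and 32.7% in HN. These counts were 2 and 3 in LN and 2 and 4 in HN with a common sum of FPKM, and 1 and 2 in LN and 3 and 7 in HN without the 3 farthest libraries. In the middle of light 3 were higher in LN and 5 in HN, with none lower, and 1 was lower in HN under a common sum.

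XTH27 (Spo24001, chromosome 4, 53843026 to 53845559) was high in the light at both pairs of times. It had 142, 165 and 192 FPKM in LN leaves at the end of light, against 50.7, 38.7 and 47.8 FPKM at the end of dark. Its HN values were 165, 169.7 and 184 FPKM at the end of light, against 33.3, 38.2 and 47.8 FPKM at the end of dark. Every end-of-light library lay above every end-of-dark library, and the difference was 1.84 ± 0.18 in LN (adjusted p = 5.61e-07) and 2.11 in HN (adjusted p = 9.4e-08). Its middle-of-light values were 157, 173 and 119.99 FPKM in LN leaves, against 63.1, 78.6 and 72 FPKM in the middle of dark (1.05, adjusted p = 0.00133). In HN that difference was 1.10 (adjusted p = 0.000343). None of the 32 alternatives ended any of the 4 calls.

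XTH9 (Spo22437) was lowest at the end of dark in HN leaves. In LN leaves it had 8.38, 21.5 and 99.6 FPKM at the end of light, against 17.2, 1.8 and 3.96 FPKM at the end of dark. The LN groups overlapped, and the value of 99.6 FPKM came from replicate 3, the library with the highest dividing-cell markers. The LN difference was 2.13 ± 0.76 (adjusted p = 0.0442), 1.2 without that library (adjusted p = 0.255) and 0.61 without the 3 farthest libraries (adjusted p = 0.462). In HN leaves it had 60.9, 79 and 86.5 FPKM at the end of light, against 10.6, 7.86 and 11.7 FPKM at the end of dark (2.79, adjusted p = 0.00811).

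XTH30 (Spo23238) was high at the end of dark and in the middle of light in HN. It had 114, 91.8 and 72.9 FPKM in HN leaves in the middle of light, against 38.9, 10 and 20.5 FPKM in the middle of dark (2.13, adjusted p = 0.00498). At the end of light HN leaves had 39.8, 22.6 and 32.9 FPKM, against 102, 88.9 and 75.5 FPKM at the end of dark (-1.48, adjusted p = 0.0286). That second call was lost without HN replicate 1 or 2 at the end of dark or replicate 2 or 3 at the end of light (highest adjusted p = 0.107). In LN its libraries ranged from 11.4 to 82.8 FPKM and time of day was not called.

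Several genes share the name XTH23, and their levels varied between plants of the same group. Spo00611 had 24.5, 21.6 and 8.63 FPKM in LN leaves in the middle of light, against 4.43, 0.812 and 3.84 FPKM in the middle of dark (2.29, adjusted p = 0.022). Its HN values were 20.8, 19.6 and 9.08 FPKM, against 1.63, 1.38 and 1.63 FPKM (2.70, adjusted p = 0.0029). Light and dark libraries were apart at each nitrogen level, though 5 of 32 alternatives ended the LN call, including leaving out LN replicate 1 or 2 in the middle of light or replicate 2 in the middle of dark (highest adjusted p = 0.0923). Spo23868 was lower at the end of light in LN by -3.02 (adjusted p = 0.00947), a call lost without the 3 farthest libraries (adjusted p = 0.0886). It had 0.89, 1.05 and 2.42 FPKM in HN leaves at the end of light, against 13, 35.6 and 6.2 FPKM at the end of dark (-2.71, adjusted p = 0.0143). Spo12328 was lower at the end of light by -2.30 in LN (adjusted p = 0.0299) and -2.62 in HN (adjusted p = 0.0118), and Spo00609 by -1.28 in LN (adjusted p = 0.004) and -0.83 in HN (adjusted p = 0.0416).

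Expansins were more often higher than lower at the end of light. Of 18, 5 were higher and 1 lower than at the end of dark in LN, and likewise 5 and 1 in HN. This was 33.3% called at each level, beside 26% of all tested genes in LN and 32.7% in HN. With a common sum of FPKM the LN counts were 4 and 1, and without the 3 farthest libraries 3 and 2 in LN and 7 and 1 in HN. Between the middle of light and the middle of dark, 1 was higher and 1 lower at each nitrogen level, and under a common sum 6 were lower in HN.

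The most abundant expansin went against that majority. Expansin-A8 (Spo16876) had 14.9, 11.1 and 61.4 FPKM in LN leaves at the end of light, against 138, 67.5 and 40.7 FPKM at the end of dark. The HN libraries had 23, 48.7 and 44.3 FPKM at the end of light, against 205, 165 and 165 FPKM at the end of dark (-2.24, adjusted p = 0.00237). Midway through the light HN leaves had 43, 50.2 and 75.6 FPKM, against 187, 165 and 204 FPKM in the middle of dark (-1.74, adjusted p = 0.0185), a call lost without HN replicate 1 or 2 in the middle of light or replicate 3 in the middle of dark (highest adjusted p = 0.0774). The LN groups overlapped through replicate 3, while HN leaves were high in the dark with no overlap. The LN difference was -1.69 (adjusted p = 0.0197), and -2.41 without LN replicate 3 at the end of light (adjusted p = 0.000872). It was lost without LN replicate 1 at the end of dark or replicate 1 or 2 at the end of light (highest adjusted p = 0.16).

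Expansin-like A2 (Spo11773) had 14.4, 16.2 and 31.8 FPKM in LN leaves at the end of light, against 6.43, 14.1 and 10.3 FPKM at the end of dark. HN leaves had 19.1, 25.9 and 18.2 FPKM at the end of light, against 2.1, 3.1 and 2.46 FPKM at the end of dark. Both pairs of groups were apart, narrowly in LN and widely in HN. The difference was 0.93 in LN (adjusted p = 0.0359) and 2.63 ± 0.32 in HN (adjusted p = 5.02e-06). Without LN replicate 3 at the end of light the LN difference was 0.59 (adjusted p = 0.199).

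Expansin-A1 (Spo08184) had 15.4, 16.5 and 15.1 FPKM in LN leaves at the end of light, against 8.91, 4.67 and 7.48 FPKM at the end of dark (1.09, adjusted p = 0.00458). The HN libraries had 12.7, 11.6 and 14.2 FPKM, against 5.62, 2.92 and 6.49 FPKM (1.25, adjusted p = 0.00123). The groups were apart at both levels, and the LN call was lost only without the 3 farthest libraries (adjusted p = 0.0542). Expansin-A4 (Spo01779) rose likewise at the end of light, to 9.79, 10.9 and 9.58 FPKM in LN leaves against 3.97, 3.28 and 5.29 FPKM at the end of dark (1.11, adjusted p = 0.00104). In HN it had 5.65, 7 and 5.97 FPKM at the end of light, against 2.11, 0.636 and 0.965 FPKM at the end of dark (1.74, adjusted p = 9.84e-06). No alternative ended either of its calls.

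Expansin-A11 (Spo11662) had 18.2, 5.5 and 66.3 FPKM in LN leaves at the end of light, against 1.03, 4.02 and 0.581 FPKM at the end of dark (3.01 ± 0.86, adjusted p = 0.0146). Its HN values were 47.5, 59.6 and 70.1 FPKM, against 3.89, 15.4 and 4.12 FPKM (3.00, adjusted p = 0.0116). The LN groups did not overlap, but the LN call was lost without LN replicate 3 at the end of light (2.14, adjusted p = 0.0898) or replicate 3 at the end of dark. A second gene named expansin-A8 (Spo08297) had 7.89, 3.89 and 7.37 FPKM in LN leaves in the middle of light, against 11.9, 20.6 and 70.8 FPKM in the middle of dark. The groups were apart, by -1.93 (adjusted p = 0.00544), and by -1.23 without LN replicate 3 in the middle of dark (adjusted p = 0.00902). In LN it was higher at the end of light than at the end of dark, with 7.25, 6.33 and 7.36 FPKM against 2.76, 1.84 and 1.82 FPKM (1.36, adjusted p = 0.0155), so its LN level was lowest at the end of dark and highest in the middle of dark. This second call was lost without LN replicate 2 at the end of dark and with voom (highest adjusted p = 0.0933). Expansin-A10 (Spo10792) averaged 56.8 FPKM and was not called in any comparison.

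**Figure D3:**
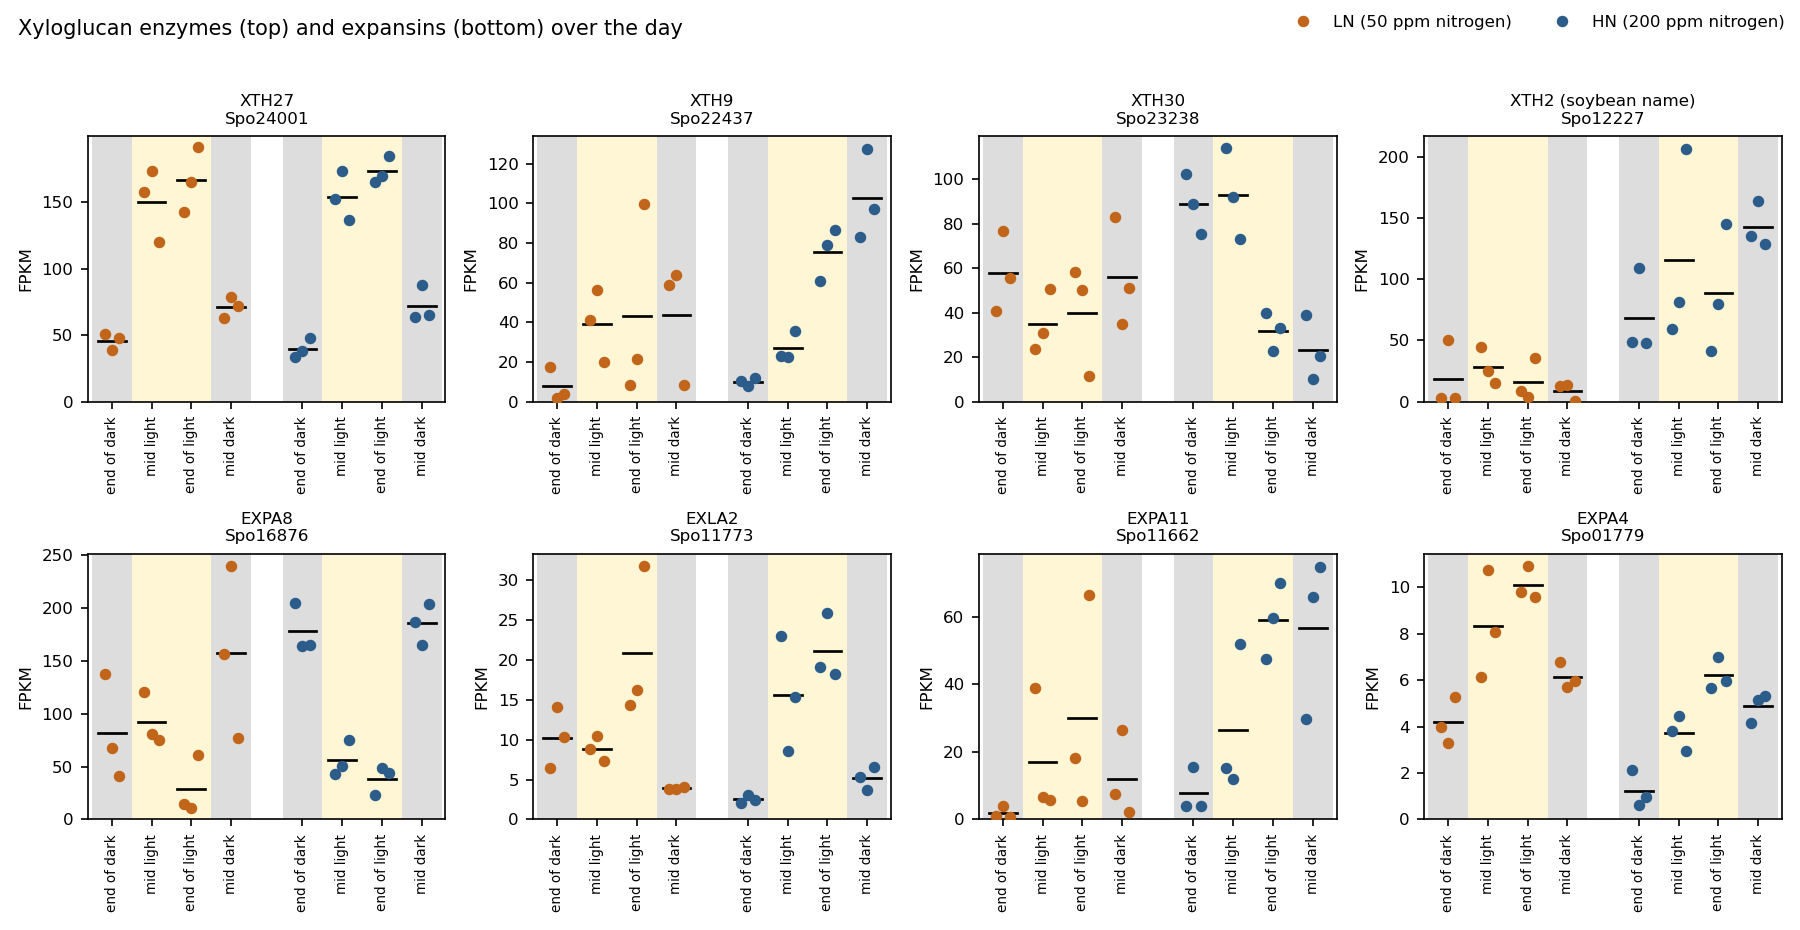
FPKM of 4 XTH genes (top row) and 4 expansin genes (bottom row) in every library (points) with the group mean (black bar), for LN and HN at the 4 times, with grey for dark and yellow for light. XTH27 stands between 119.99 and 192 FPKM in the light and between 33.3 and 87.5 FPKM in the dark, and expansin-A8 in HN shows the opposite pattern.

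Pectinesterases changed in both directions. Time of day was called in 3 of 17 in LN (17.6%, beside 28.7% of all tested genes) and 6 in HN (35.3%, beside 38.9%). Of the 17, 3 were higher at the end of light than at the end of dark in LN, and 2 were higher and 1 lower in HN. The called share was 17.6% at each level, beside 26% of all tested genes in LN and 32.7% in HN. The LN counts were 2 higher and 1 lower with a common sum of FPKM and 3 higher and 1 lower without the 3 farthest libraries. Between the middle of light and the middle of dark, 1 was higher in LN, and 2 were higher and 2 lower in HN (2 and 3 with a common sum).

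Pectinesterase 2.1 (Spo18561) was among the 3. It had 15, 16.7 and 19.7 FPKM in LN leaves at the end of light, against 5.61, 3.1 and 3.33 FPKM at the end of dark. HN leaves had 28.7, 32.4 and 33.6 FPKM at the end of light, against 12.3, 10.3 and 12.4 FPKM at the end of dark. All end-of-light libraries were above all end-of-dark libraries, by 1.88 ± 0.30 in LN (adjusted p = 0.000145) and 1.37 in HN (adjusted p = 0.00181), and no alternative ended either call.

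Pectinesterase 47 (Spo26212), which carries an inhibitor-like pro-region in its name, was higher in the light in LN leaves, by 0.81 at the end of light against the end of dark (adjusted p = 0.0218) and by 1.08 between the middle times of light and dark (adjusted p = 0.0117), where 5 and 3 of 32 alternatives ended the call, the first of them without LN replicate 2 at the end of dark (0.69, adjusted p = 0.0977) or replicate 1 or 2 at the end of light. Its values in HN were 17.9, 15.8 and 17.1 FPKM at the end of light, against 5.66, 4.72 and 5.6 FPKM at the end of dark (1.505, adjusted p = 0.000156). Midway through the light HN leaves had 15.4, 23.5 and 12.5 FPKM, against 5.44, 6.09 and 6.73 FPKM in the middle of dark (1.31, adjusted p = 0.00108). Its HN level therefore held near a high value through the light and a low value through the dark.

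Pectinesterase 3 (Spo07760), the most abundant, had 84.5, 77 and 61.4 FPKM in HN leaves in the middle of light, against 43.3, 27 and 24.4 FPKM in the middle of dark (1.24, adjusted p = 0.011). That call was lost without HN replicate 1 in the middle of light or replicate 3 in the middle of dark (highest adjusted p = 0.0579). Pectinesterase 31 (Spo05437) ran the other way in HN, at 23.7, 16.2 and 20.5 FPKM at the end of light, against 32.9, 33.3 and 30.6 FPKM at the end of dark (-0.67, adjusted p = 0.0166). Its call was lost without HN replicate 2 at either time (highest adjusted p = 0.0889). Of the 3 separate pectinesterase inhibitors, inhibitor 9 (Spo11370), the most abundant, ranged from 66.8 to 121 FPKM in LN and from 73.5 to 144 FPKM in HN and was not called in any comparison. Inhibitor 10 (Spo26236) changed with time of day in LN (adjusted p = 0.0223), at 46.9, 37.5 and 37.6 FPKM in the middle of dark.

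Polygalacturonases, which cut pectin chains, split by gene. At the end of light 2 of 18 were higher in LN, and 4 were higher and 2 lower in HN. The called shares were 11.1% and 33.3%, beside 26% of all tested genes in LN and 32.7% in HN. The LN counts were 1 and 0 with a common sum of FPKM and 0 and 1 without the 3 farthest libraries, where the HN counts were 5 and 3. Between the middle of light and the middle of dark, 2 were higher and 4 lower in HN, and none higher and 6 lower with a common sum.

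Spo02460, a probable polygalacturonase, had 24.5, 21.8 and 28.5 FPKM in LN leaves at the end of light, against 13.6, 15.9 and 17.4 FPKM at the end of dark (0.64, adjusted p = 0.0167), a call that was lost without LN replicate 3 at the end of light (adjusted p = 0.0714) or replicate 1 at the end of dark. The HN libraries had 27.4, 25.2 and 21.9 FPKM at the end of light, against 12.2, 14.1 and 10.3 FPKM at the end of dark (0.97, adjusted p = 0.000583). In the middle of light the HN level was low, with 6.9, 13.1 and 10.2 FPKM, against 17.1, 18.3 and 21.1 FPKM in the middle of dark (-0.87, adjusted p = 0.00263). In HN this gene therefore peaked at the end of light rather than through the light.

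Spo21371, another probable polygalacturonase, had 1.55, 2.27 and 2.57 FPKM in HN leaves at the end of light, against 14, 14.2 and 12.6 FPKM at the end of dark (-2.24, adjusted p = 0.0013). Its middle-of-light values were 3.76, 2.73 and 1.38 FPKM, against 15.1, 12.6 and 12.5 FPKM in the middle of dark (-2.04, adjusted p = 0.00439). HN leaves thus held it at a high level in the dark and a low level in the light, with no overlap. Spo04444 was lower in the light in HN as well, by -1.17 in the middle (adjusted p = 0.00169) and -0.92 at the end (adjusted p = 0.00546), and no alternative ended these 4 calls. The most abundant member, Spo14737, averaged 22.8 FPKM and was not called in any comparison.

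Pectate lyases cut pectin once its methyl groups are removed. At each nitrogen level 3 of 11 were higher at the end of light, with none lower. The share of 27.3% was near that of all tested genes in LN (26%) and below it in HN (32.7%). With a common sum of FPKM 2 were higher in HN, and without the 3 farthest libraries 1 was lower in LN. Between the middle of light and the middle of dark none was called in LN and 1 was lower in HN (2 lower with a common sum). This was pectate lyase 20 (Spo04512), with 2.47, 2.76 and 9.34 FPKM in HN leaves in the middle of light, against 30.6, 29.98 and 22 FPKM in the middle of dark (-2.46, adjusted p = 0.0212), a call lost without replicate 1 or 2 at either time (highest adjusted p = 0.0903).

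Pectate lyase 12 (Spo06997, chromosome 5, 24050563 to 24055589) had the largest difference of the pectate lyases between the end of light and the end of dark. It had 18.6, 19.5 and 56.2 FPKM in LN leaves at the end of light, against 3.03, 1.48 and 1.53 FPKM at the end of dark. Its HN values were 38.3, 32.8 and 29.6 FPKM at the end of light, against 2.53, 1.52 and 1.7 FPKM at the end of dark. End-of-light libraries lay far above end-of-dark libraries, by 3.27 ± 0.48 in LN (adjusted p = 5.93e-05) and 3.58 in HN (adjusted p = 1.83e-05). Pectate lyase P56 (Spo04494) had 69.1, 67.5 and 33.3 FPKM in LN leaves at the end of light, against 16.2, 23.7 and 20.8 FPKM at the end of dark (1.39, adjusted p = 0.000574). The HN libraries had 47.1, 33.1 and 57.4 FPKM, against 14.4, 12.7 and 12.3 FPKM (1.70, adjusted p = 6.35e-05). No alternative ended the calls of either gene. A second gene named pectate lyase 12 (Spo27330) was higher at the end of light in LN leaves by 1.77 (adjusted p = 0.000781), and pectate lyase 8 (Spo05630), at 15.8 FPKM on average, was not called in any comparison.

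Polygalacturonase inhibitors are leucine-rich repeat proteins of the wall that bind polygalacturonases of attacking fungi. Whether they act on the spinach polygalacturonases described here was not tested. Of 14 inhibitor or beta-like genes, 4 were higher at the end of light in LN and 7 in HN, and none was lower. The called shares were 28.6% and 50%, beside 26% of all tested genes in LN and 32.7% in HN. The counts were the same with a common sum of FPKM, and 3 in LN and 8 in HN without the 3 farthest libraries. Between the middle of light and the middle of dark, 2 were higher in LN and 4 in HN, which became 2 higher and 1 lower in HN under a common sum. Because 8 of the 14 are neighbours on chromosome 3, they do not count as independent genes.

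Polygalacturonase inhibitor 1 (Spo27121, chromosome 3, 33929764 to 33934111) had 26.9, 19.9 and 14.9 FPKM in LN leaves at the end of light, against 2.18, 3.64 and 1.73 FPKM at the end of dark. HN leaves had 17.1, 21 and 17.9 FPKM at the end of light, against 3.83, 2.66 and 2.74 FPKM at the end of dark. No library of the light reached down to the dark, and the difference was 2.62 ± 0.26 in LN (adjusted p = 5.59e-07) and 2.28 in HN (adjusted p = 2.37e-06). Midway through the light LN leaves had 11, 13.2 and 9.66 FPKM, against 1.04, 2.26 and 1.79 FPKM in the middle of dark (2.20, adjusted p = 2.18e-05). HN leaves had 31.7, 17.9 and 16.8 FPKM, against 2.58, 2.89 and 3.56 FPKM (2.48, adjusted p = 3.87e-06). None of the alternatives ended these 4 calls.

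Spo12997, also named polygalacturonase inhibitor 1 but on scaffold SpoScf_01638, had 29.8, 51.4 and 22.7 FPKM in LN leaves at the end of light, against 2.81, 4.5 and 1.68 FPKM at the end of dark (3.14, adjusted p = 0.000523). Its HN values were 49.8, 31.4 and 26 FPKM, against 1.75, 0.54 and 1.71 FPKM (3.97 ± 0.58, adjusted p = 4.13e-05). This was the largest difference between the end of light and the end of dark among the 120 genes in HN. Its level in the middle of light was between 3.5 and 10.5 FPKM at both nitrogen levels, so the high values were at the end of light. The most abundant of the group, polygalacturonase inhibitor 2 (Spo24643), was high in the middle of light and spread widely between plants. It had 252, 146 and 94.4 FPKM in LN leaves in the middle of light, against 14.5, 56.2 and 2.62 FPKM in the middle of dark (3.37, adjusted p = 0.0337). The HN libraries had 133, 245 and 34.8 FPKM, against 11.1, 14.7 and 8.89 FPKM (3.10, adjusted p = 0.0221). The groups did not overlap, yet leaving out either of replicates 1 and 2 in the middle of light, or either of replicates 1 and 3 in the middle of dark, ended the call at each nitrogen level (highest adjusted p = 0.135 in LN and 0.108 in HN).

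**Figure D4:**
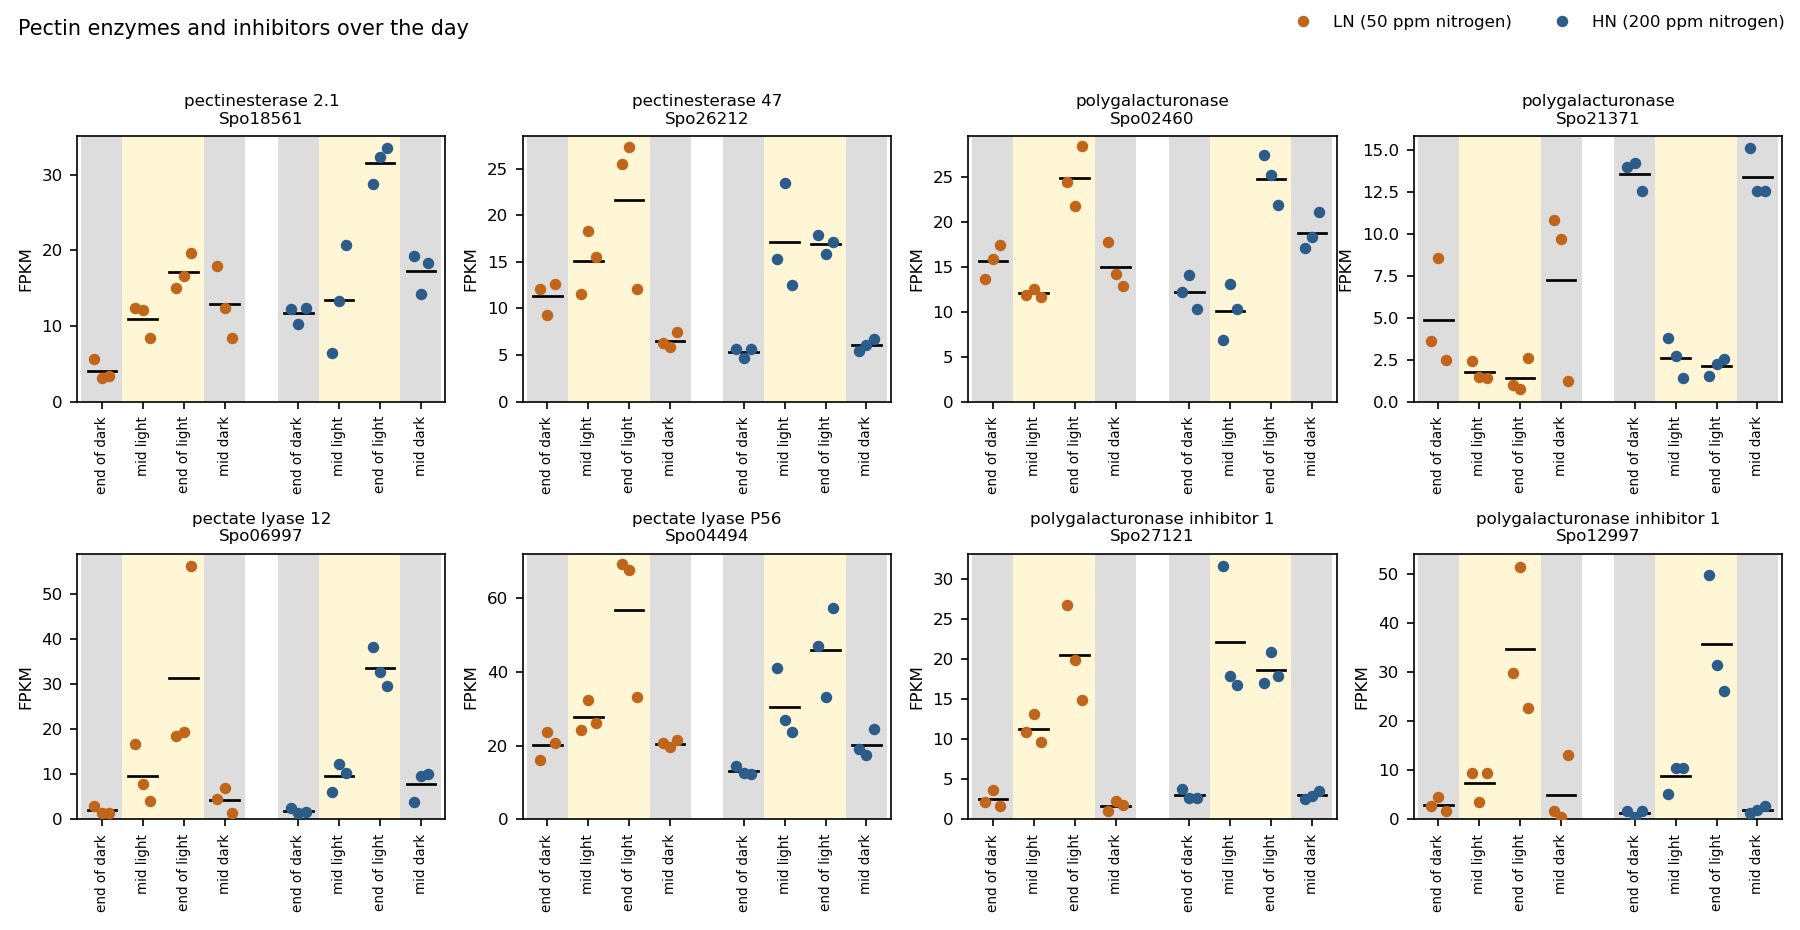
FPKM of 8 genes that modify pectin or inhibit polygalacturonases in every library (points) with the group mean (black bar), for LN and HN at the 4 times, with grey for dark and yellow for light. Pectate lyase 12 (Spo06997) and polygalacturonase inhibitor 1 (Spo12997) stand highest at the end of light, and the polygalacturonase Spo21371 stands higher in the dark in HN.

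Nitrogen supply was compared by averaging the LN minus HN difference over the 4 times, with 12 libraries at each level. It changed 25 of the 120 genes, 5 higher and 20 lower in LN, beside 16.5% of all tested genes (7.92% higher and 8.62% lower). The median over the 120 genes was -0.06. Over all 12 libraries the LN and HN ranges overlapped in each of the 25 genes. Lower in LN were 5 of 21 XTHs, 4 polygalacturonases, 3 polygalacturonase inhibitors, 2 pectinesterases, 2 expansins, 2 Csl genes, 1 pectate lyase and 1 CesA. Higher in LN were 2 expansins, 1 XTH, 1 Csl gene and 1 pectinesterase inhibitor. With a common sum of FPKM neither the CesA nor any Csl gene was called lower, and 2 polygalacturonase inhibitors were. Without the 3 farthest libraries 23 of the 25 calls remained and 31 genes were called. The count was 15 without LN replicate 3 at the end of dark, 15 without LN replicate 3 in the middle of light and 16 without LN replicate 3 in the middle of dark, with 10 lower in LN each time. Photosynthetic markers moved with nitrogen too, with 5 of 24 lower and none higher in LN, as did 2 of 19 dividing-cell markers, both lower. Their part in the wall gene differences was not tested.

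The largest differences belonged to the adjacent XTH2-named genes. Spo12226 had 2.24, 70.2 and 2.02 FPKM in LN leaves at the end of dark, 65.3, 32.8 and 17.2 FPKM in the middle of light, 8.06, 3.41 and 55.6 FPKM at the end of light, and 21.2, 16.4 and 0 FPKM in the middle of dark. In HN leaves the lowest value was 57.8 FPKM and the highest 268 FPKM. It averaged 24.5 ± 25.6 FPKM in LN and 135 ± 66.4 FPKM in HN (SD, n = 12 each), a difference of -3.23 ± 0.57 (SE, adjusted p = 0.00181). Spo12227 averaged 17.9 ± 17.1 FPKM in LN and 104 ± 52.9 FPKM in HN, a difference of -3.00 ± 0.48 (adjusted p = 0.00116). No alternative ended either call, and the LN level varied widely from plant to plant, with the higher LN values at the end of dark and at the end of light coming from the libraries farthest from their groups.

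XTH6 (Spo09254), the most abundant XTH, averaged 90.5 ± 43.2 FPKM in LN and 166 ± 87.5 FPKM in HN (-0.90, adjusted p = 0.0293). Leaving out any 1 of 5 libraries ended that call (highest adjusted p = 0.0586): LN replicate 3 at the end of dark or in the middle of light, LN replicate 2 at the end of light, HN replicate 3 in the middle of light or HN replicate 2 in the middle of dark. XTH32 (Spo10939) was the XTH higher in LN, at 5.01 ± 5.41 FPKM in LN and 0.536 ± 0.732 FPKM in HN (1.58, adjusted p = 0.00734). Its LN values ran from 0.663 to 18.1 FPKM and its HN values from 0 to 2.54 FPKM, so the gene was near the detection rule in HN.

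Expansins moved in both directions with nitrogen. Expansin-A4 (Spo01779) averaged 7.18 ± 2.59 FPKM in LN and 4.01 ± 2.003 FPKM in HN (0.78 ± 0.11, adjusted p = 0.000754), the smallest adjusted p among the wall genes in this comparison. At each of the 4 times its LN mean was above its HN mean. Expansin-like B1 (Spo09736) averaged 3.67 ± 3.36 FPKM in LN and 0.491 ± 0.41 FPKM in HN (1.40 ± 0.29, adjusted p = 0.0049). Expansin-A11 (Spo11662) ran the other way, at 15.3 ± 19.8 FPKM in LN and 37.5 ± 26.9 FPKM in HN (-1.62, adjusted p = 0.0167). No alternative ended these 3 calls.

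Among pectin genes, pectinesterase 2.1 (Spo18561) averaged 11.2 ± 5.56 FPKM in LN and 18.5 ± 8.87 FPKM in HN (-0.70 ± 0.15, adjusted p = 0.00527). Pectinesterase inhibitor 6 (Spo02787) averaged 8.78 ± 3.55 FPKM in LN and 4.84 ± 1.86 FPKM in HN (0.73 ± 0.17, adjusted p = 0.00818). An exopolygalacturonase (Spo08264), which trims pectin from chain ends, averaged 16.3 ± 6.49 FPKM in LN and 22.1 ± 5.22 FPKM in HN (-0.47 ± 0.13, adjusted p = 0.0187), and the polygalacturonase Spo21371 3.83 ± 3.66 FPKM in LN and 7.94 ± 5.89 FPKM in HN (-0.84, adjusted p = 0.0215). These 4 calls were lost under none of the alternatives.

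In the cellulose synthase family, CesA3 averaged 136 ± 31.1 FPKM in LN and 165 ± 23.8 FPKM in HN (-0.30, adjusted p = 0.0358), and 15 of 31 alternatives ended that call (highest adjusted p = 0.0663), a common sum of FPKM among them. The CslG2 gene Spo12715 averaged 14.9 ± 12.4 FPKM in LN and 3.88 ± 3.97 FPKM in HN (1.54, adjusted p = 0.0199), while its neighbour Spo12718, of the same name, was lower in LN by -0.30 (adjusted p = 0.024). That second call was lost with a common sum of FPKM (adjusted p = 0.0584).

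**Figure D5:**
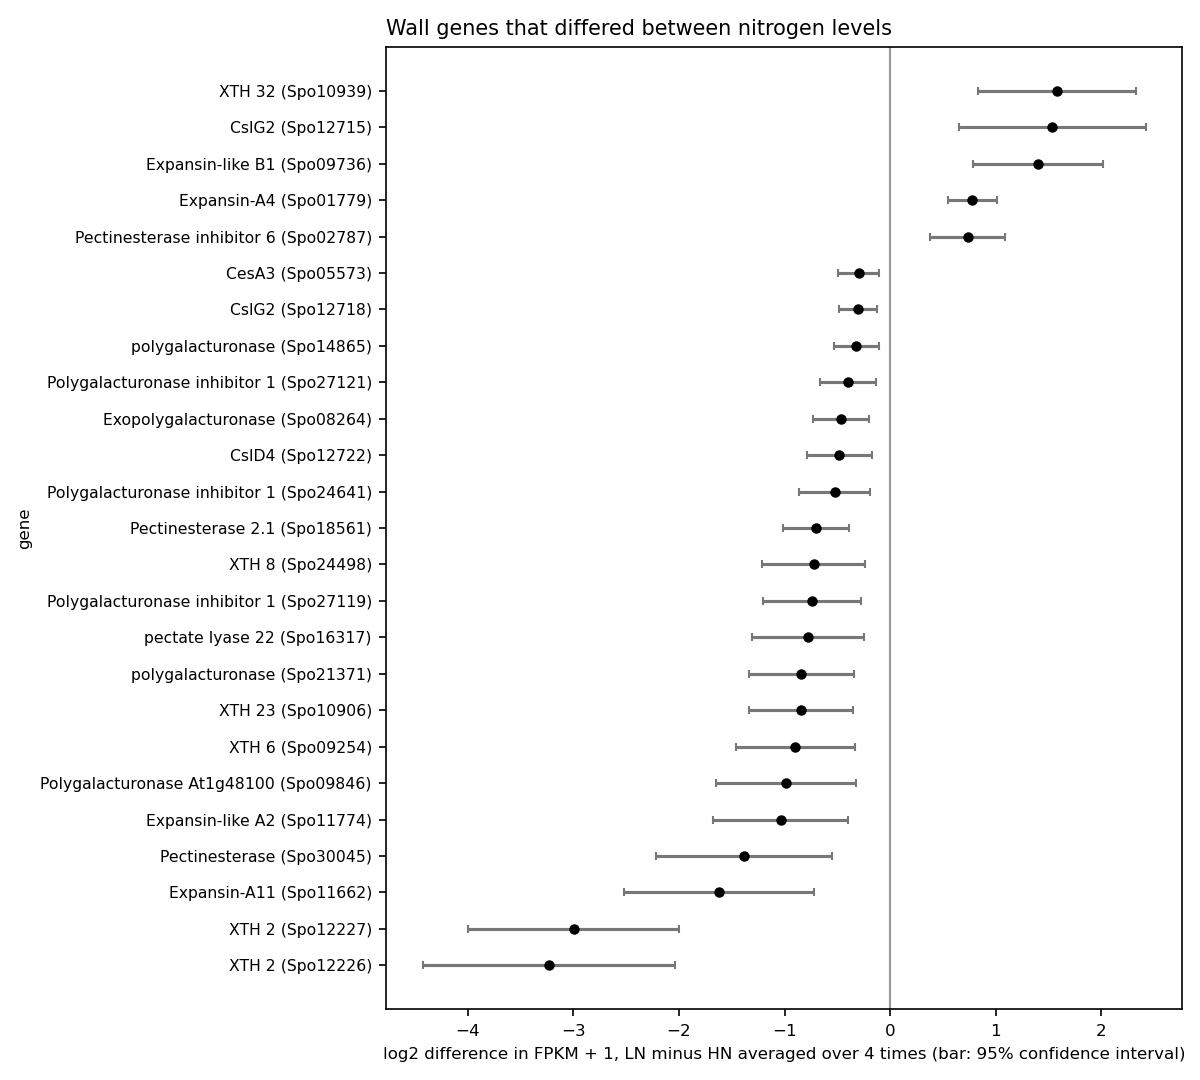
LN minus HN difference averaged over the 4 times, as log2 of FPKM + 1, for the 25 wall genes called in this comparison (points) with the 95% confidence interval (bars). The 5 genes right of 0 are led by XTH32 (1.58) and the 20 left of 0 end with the XTH2-named genes Spo12227 (-3.00) and Spo12226 (-3.23).

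At single times, the nitrogen difference was called mainly at the end of dark. These comparisons use the same libraries as the average. There 12 genes were called, 5 higher in LN (beside 5.1% of all tested genes) and 7 lower (beside 4.86%), which compares with 9.97% in all. LN and HN libraries did not overlap in any of the 12, a separation that calling favours and that was not counted over all called genes. Same-numbered LN and HN libraries deviated together at this time, with correlations of 0.136 to 0.414. With a replicate block 8 of the 12 calls remained. That block fits a replicate effect shared by all groups, so it does not account for a pairing at this time alone. The calls lost under it were XTH32, expansin-like B1 Spo09778, CslD4 and pectate lyase 12 Spo27330 (adjusted p = 0.0533 to 0.056). The count was 2 without LN replicate 3 at that time, 3, 5 and 4 without HN replicates 1, 2 and 3, 19 without LN replicate 2, and 30 without the 3 farthest libraries. No wall gene was called in the middle of light or at the end of light by limma, where 0.00552% of all genes were called at each time and 16 and 9 wall genes had an unadjusted p under 0.05. Voom on recovered fragments also called none at those times, and without the 3 farthest libraries 3 were called at the end of light. In the middle of dark 1 was called higher in LN, beside 0.133% of all genes, and 1 lower, beside 0.237%.

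Expansin-A4 had 3.97, 3.28 and 5.29 FPKM in LN leaves at the end of dark, against 2.11, 0.636 and 0.965 FPKM in HN leaves (1.25, adjusted p = 0.00245). Expansin-like A2 (Spo11773) had 6.43, 14.1 and 10.3 FPKM in LN leaves, against 2.1, 3.1 and 2.46 FPKM in HN leaves (1.62, adjusted p = 0.00447). Of all 12 calls at this time, 11 were ended by at least 1 alternative and only 1 by none. Pectinesterase 47 (Spo26212) had 12.1, 9.31 and 12.6 FPKM in LN leaves, against 5.66, 4.72 and 5.6 FPKM in HN leaves (0.95, adjusted p = 0.0211), a call that 6 of 32 alternatives ended, among them leaving out LN replicate 1 or 3 or any HN replicate at that time (highest adjusted p = 0.107). In HN these 3 genes had their lowest mean of the day at that time, and LN leaves stood above them. XTH32 (2.34, adjusted p = 0.0443) and expansin-like B1 Spo09778 (0.85, adjusted p = 0.0444) were also higher in LN, and 15 and 18 of 31 alternatives ended their calls.

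Cellulose synthase and Csl genes made up 4 of the 7 genes lower in LN at the end of dark. CesA4 had 18.7, 31.8 and 11.8 FPKM in LN leaves, against 41.8, 34.3 and 42 FPKM in HN leaves (-0.99, adjusted p = 0.0339). CesA3 had 119.7, 143 and 78.2 FPKM in LN leaves, against 206, 145 and 176 FPKM in HN leaves (-0.65, adjusted p = 0.0323). CslD4 had 29.5, 41 and 20.1 FPKM in LN leaves, against 72.9, 51.8 and 54.4 FPKM in HN leaves (-0.999, adjusted p = 0.0375). CslE1 was lower by -0.72 (adjusted p = 0.0315), and all 4 of these calls were lost with a common sum of FPKM and without LN replicate 3 at the end of dark, with a highest adjusted p of 0.223 for CesA3, 0.225 for CesA4, 0.218 for CslD4 and 0.111 for CslE1.

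XTH23-named Spo10906 had 4.88, 6.22 and 3.6 FPKM in LN leaves, against 18.9, 18.4 and 19.8 FPKM in HN leaves (-1.79, adjusted p = 0.0223). Its HN libraries were close together and far above LN, and the call was lost without LN replicate 3 or any 1 of the 3 HN libraries (highest adjusted p = 0.114). Pectinesterase 2.1 had 5.61, 3.1 and 3.33 FPKM in LN leaves, against 12.3, 10.3 and 12.4 FPKM in HN leaves (-1.37, adjusted p = 0.00909), a call lost without LN replicate 3 (adjusted p = 0.0573). Pectate lyase 12 Spo27330 was lower by -1.07, just past the threshold, and 23 of 32 alternatives ended its call.

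The calls in the middle of dark were XTH2-named Spo12227 and pectinesterase 3 (Spo07760). Spo12227 had 12.3, 13.3 and 0.361 FPKM in LN leaves, against 135, 164 and 129 FPKM in HN leaves (-4.49 ± 0.96, adjusted p = 0.0481). Without LN replicate 3, the library at 0.361 FPKM, the difference was -3.37 (adjusted p = 0.289). Pectinesterase 3 had 82.1, 99 and 98.7 FPKM in LN leaves, against 43.3, 27 and 24.4 FPKM in HN leaves (1.57, adjusted p = 0.0468). LN and HN did not overlap in either gene, and 21 and 18 of 32 alternatives ended the calls.

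A test of whether the nitrogen difference changed with time of day called none of the 120 genes in limma, beside 0.0828% of all tested genes, and 10 had an unadjusted p under 0.05. Voom on recovered fragments also called none. Expansin-like A2 was called without LN replicate 1 at the end of dark (adjusted p = 0.0307) or LN replicate 3 at the end of light (adjusted p = 0.0409). Without the 3 farthest libraries 3 were called: XTH30 (Spo23238), expansin-like A2 (Spo11773) and expansin-like B1 (Spo09778). In the middle of light the first of these had 23.4, 30.7 and 50.7 FPKM in LN leaves, against 114, 91.8 and 72.9 FPKM in HN leaves.

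Other genes of the wall, such as those for xyloglucan and pectin synthesis, sugar-nucleotide supply and arabinogalactan proteins, were listed by protein name and counted by direction. Of 367 listed genes 220 were tested. Time of day was called in 83 of them in LN (37.7%) and 89 in HN (40.5%), beside 28.7% and 38.9% of all genes. At the end of light 42 were higher and 24 lower than at the end of dark in LN, and 47 were higher and 26 lower in HN. The called shares were 30% in LN and 33.2% in HN, beside 26% and 32.7% of all tested genes. Over all tested genes 12.2% were higher and 13.8% lower in LN, and 15.7% and 17.1% in HN. Between the middle of light and the middle of dark, 13 were higher and 5 lower in LN, and 33 were higher and 17 lower in HN. These were 8.18% and 22.7% of those tested, beside 7.66% and 23.7% of all tested genes. Averaged over the day, 17 were higher and 18 lower in LN than in HN, and at the end of dark 20 were higher and 9 lower. The called shares were 15.9% over the day and 13.2% at the end of dark, beside 16.5% and 9.97% of all tested genes. None was called for a nitrogen difference in the middle of light or at the end of light. In the middle of dark 1 was lower in LN (0.455%, beside 0.37% of all tested genes called). None was called for a nitrogen difference that changed with time.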

How the data were processed

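Leaf RNA from 24 spinach libraries was sequenced as directional poly-A libraries, per the labels' protocols. The deposited table gives FPKM per gene, scaled by the authors, with coordinates and protein names. HISAT2, RSEM and DESeq2 1.20.0 are named in the submitters' processing notes, without their roles. Per the labels, the series title names Sp75 as the assembly. FPKM steps gave whole fragments for 100.0% of values (within 0.01), which gave the depth per library. Counting error covers only part of the spread between plants. 1 blank line was dropped, and replicates were not duplicates (lowest chi-square per degree of freedom 27.7).

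limma 3.58.1 in R 4.3.3 was fitted to log2(FPKM + 1) of 18110 genes with at least 1 FPKM in at least 3 libraries, with 8 group means and a mean-variance trend. P-values were adjusted by Benjamini-Hochberg over all 18110. The fit was tested on simulated data with independent normal noise, where 200 genes with a mean of at least 5 FPKM were changed 2-fold in FPKM + 1. Between the middle of light and the middle of dark in HN 51% were recovered, and 1.92% of the calls were false. For LN minus HN averaged over the day these shares were 91.5% and 6.63%, and for LN minus HN at the end of dark 43% and 2.27%. Genes with a mean under 5 FPKM, 45 of the wall genes, were not among those changed, so recovery was not measured for them.

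The genes, lists and rules were chosen with earlier results of these data known. Genes were named from, in each family, the 2 highest means and the 3 called genes with the smallest adjusted p per comparison. Every CesA was added, and so were the called genes of comparisons with 12 or fewer calls. Not every such gene is described for every comparison. Marker lists for photosynthetic, dividing, xylem, phloem, guard, pollen and root cells were chosen by protein name. At the end of light against the end of dark, photosynthetic markers were 5 higher and 1 lower of 24 in LN and 3 and 1 in HN, and dividing-cell markers 2 and 1 of 19 in LN and 2 and 2 in HN. In the same comparison 1 of 9 xylem markers was lower and 1 of 5 phloem markers higher at both levels, 1 of 3 guard cell markers was lower in LN, and the 1 pollen marker was higher at both. No tested root marker was available.

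Same-numbered replicates did not vary together over the series (mean correlation -0.018). In 1 of 28 pairs of groups, LN and HN at the end of dark, all such correlations exceeded 0.1. Other settings tried were a common sum of FPKM, a pseudocount of 0.1, no filter, a mean of 5 FPKM or more, a replicate block, voom on recovered fragments, the compared groups only and each library left out. Leaving out the 3 farthest libraries was chosen after seeing the data. Sequences were not used here.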

Additional observations from a re-analysis of the deposited data

How the results depend on the processing

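Of 5433 recomputed values of 171 named calls, 5008 stayed under the threshold and 425 did not. Many of these values come from leaving out a library outside the compared groups. For nitrogen averaged over the day, no alternative ended 13 of all 25 calls. At the end of dark this held for 1 of 12, and in the middle of dark for 0 of 2. Between the end of light and the end of dark it held for 12 of 33 in LN and 25 of 39 in HN. Between the middle times it held for 4 of 12 and 13 of 29, and for time of day 22 of 39 and 28 of 47. The calls for time of day come from an F test without a direction, so only their adjusted p was compared. Among the other calls 0 values reversed in direction. Leaving out each library in turn gave 29 to 47 called wall genes for time of day in LN, 36 to 50 in HN, 6 to 15 and 18 to 35 between the middle of light and the middle of dark in LN and HN, and 27 to 40 and 30 to 42 between the end of light and the end of dark. For nitrogen it gave 15 to 32 averaged over the day, 2 to 19 at the end of dark, 0 to 0 in the middle and at the end of light, 0 to 4 in the middle of dark, and 0 to 1 for a nitrogen difference that changed with time.

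Fitting the compared groups only called 24 genes for time of day in LN, 5 for the middle of light in LN, 16 for the end of light in LN, 4 for nitrogen at the end of dark and 0 in the middle of dark, where fewer samples estimate the spread. A common sum of FPKM called 7 for nitrogen at the end of dark. For nitrogen in the middle of dark 1 was called with a pseudocount of 0.1, and 0 with no filter, the replicate block or voom. Without the 3 farthest libraries 20 were called in the middle of light in LN, 30 for nitrogen at the end of dark, 3 for nitrogen at the end of light and 3 for a nitrogen difference that changed with time. The cause was not tested. The replicate block gave 36 and 43 genes for time of day in LN and HN and 8 for nitrogen at the end of dark. Whether same-numbered samples shared more than a number was not stated. Voom called 37 and 40 wall genes for time of day in LN and HN, among 5017 and 6660 of all genes. The 45 genes with a mean under 5 FPKM are the least precisely measured.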

Other observations

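Several other wall genes, chosen after their values were seen, also differed between the light and dark times. Xyloglucan 6-xylosyltransferase 5 (Spo08599), which adds xylose side chains to xyloglucan, was higher at the end of light by 2.98 in LN (limma adjusted p = 2.61e-06) and 3.61 in HN (adjusted p = 2.32e-07). Alpha-xylosidase 1 (Spo09701), which removes such side chains, was higher by 2.59 in LN (adjusted p = 0.000227) and 2.99 in HN (adjusted p = 4.18e-05). Pectin acetylesterase 9 (Spo04421) was higher by 2.12 in LN (adjusted p = 3.95e-05) and 2.45 in HN (adjusted p = 6.23e-06). UDP-glucose 6-dehydrogenase 1 (Spo26067), which supplies UDP-glucuronic acid for pectin and hemicellulose synthesis, was higher at the end of light by 1.52 in LN (adjusted p = 0.00183) and 2.36 in HN (adjusted p = 2.32e-05). Wall-associated receptor kinase-like 2 (Spo25210) was lower at the end of light by -2.52 in LN (adjusted p = 8.68e-07) and -1.82 in HN (adjusted p = 3.07e-05).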
